A study of Homo sapiens with 6 samples.

Results

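The high mobility group (HMG) genes of the A, B and N classes were followed in HCC827 cells, an established line of human lung adenocarcinoma whose EGFR gene holds an activating deletion. The members were taken by name, with no threshold on their values, though earlier results of these data were known. They are HMGA1, HMGA2, HMGB1, HMGB2, HMGB3, HMGN1, HMGN2, HMGN3, HMGN4 and HMGN5, 10 of the 28395 genes listed. One group of 3 libraries came from cells given the vehicle DMSO and the other group of 3 from cells given 1 μM erlotinib, an inhibitor of the EGFR kinase, both for 24 h. Polyadenylated RNA of whole cultures was sequenced, so fewer cells of a kind and less RNA per cell cannot be told apart. The libraries held 20858083, 24641819 and 21172884 reads on genes in DMSO (libraries 1, 2 and 3) and 21944007, 20760204 and 21678395 under erlotinib (libraries 4, 5 and 6, numbered as in the deposited table).

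HMG proteins are small, abundant and mobile proteins that bind chromatin with little preference for sequence and change its shape. HMGA proteins hold the narrow groove of AT-rich DNA with short AT-hooks, HMGB proteins bend DNA with HMG boxes and end in an acidic tail, and HMGN proteins bind the nucleosome itself and loosen the compaction that linker histones bring about. HMGA1 and HMGA2 are best known from embryonic tissue and from epithelial tumours, where their RNA is abundant.

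Of the 10 genes, 7 were lower under erlotinib at an adjusted p-value under 0.05, 1 was higher and 2 were neither (limma on log2(signal + 1), Benjamini-Hochberg over all genes tested). Among the 14215 genes whose mean signal reached 10, 35.4% were lower, 35.3% higher and 70.7% either by the same rule. These were 5031 lower and 5012 higher genes, against 3955 and 6156 when libraries were scaled to their total counts. All 10 HMG genes passed that filter. HMGB2, HMGA2, HMGA1 and HMGB1 fell by more than 1 log2 unit, 4 of 10, where 10.8% of all tested genes did. Both HMGA genes, all 3 HMGB genes, and HMGN1 and HMGN2 among the 5 HMGN genes were lower. HMGN3 was the gene that was higher, and HMGN4 and HMGN5 were neither. The median log2 change of the 10 genes was -0.76, against 0.02 over all genes tested. Signal is the number of reads divided by the size factor of the library. Nothing in the labels says that the libraries of a group came from separate cultures, so the p-values measure the spread between these libraries only.

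**Figure D1:**
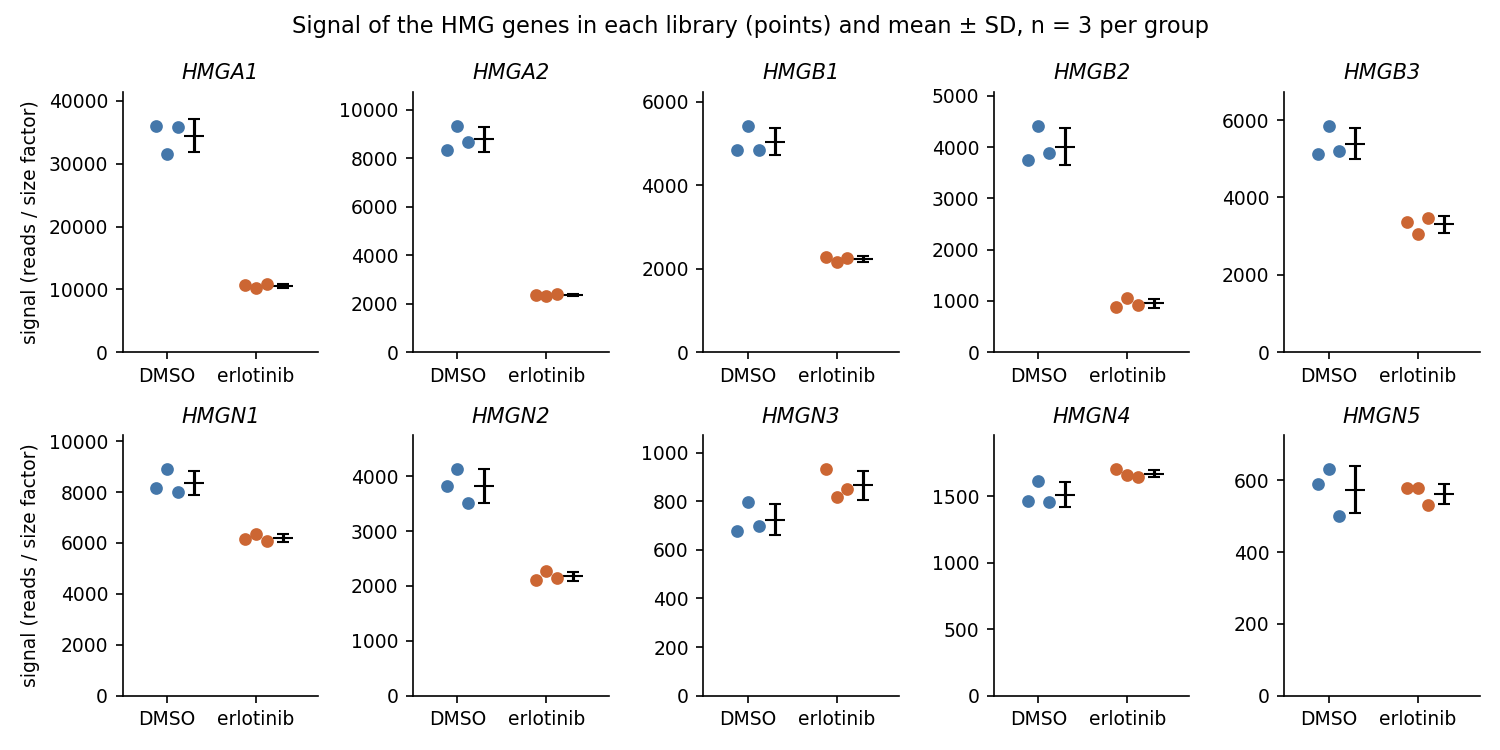
Signal (reads divided by the size factor, axes from 0) of each of the 10 HMG genes in the 3 DMSO libraries (blue points) and the 3 erlotinib libraries (orange points), in the order of their numbers, with the mean and SD as a black bar. The groups overlap for HMGN5, and for the other 9 genes they do not.

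HMGA1 and HMGA2 encode the AT-hook proteins. HMGA1 (Entrez gene 3159, GRCh38 chromosome 6, 34236873 to 34246231) had a signal of 36015, 31517 and 35916 in the DMSO libraries and 10658, 10158 and 10829 under erlotinib. Every erlotinib library was below every DMSO library, and DMSO library 2 was the lowest of its group. The mean fell from 34483 ± 2569 to 10548 ± 349 (SD, n = 3 each), a log2 change of -1.71 (SE 0.07, limma adjusted p = 6.0e-15). HMGA1 had the highest signal of the 10 genes in every library.

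HMGA2 (Entrez gene 8091, chromosome 12, 65824460 to 65966291) had a signal of 8321, 9323 and 8664 under DMSO and 2368, 2330 and 2409 under erlotinib. The erlotinib libraries lay close together, with an SD of 39.1, and far below the DMSO libraries, whose SD was 509. The mean signal in DMSO was 3.70 times that under erlotinib, and 2.96% of all tested genes had a lower log2 change than the -1.89 of HMGA2 (SE 0.07, limma adjusted p = 1.0e-15). The paper that reported these data had already named HMGA2 among the genes suppressed by erlotinib. The fall given here comes from the same data and is not a separate finding. The HMGA2 locus also holds RPSAP52, a transcribed pseudogene, and HMGA2-AS1, listed as LOC100129940, and the strand that was counted is not stated. RPSAP52 had a mean signal of 46.0 under DMSO and 4.97 under erlotinib, and LOC100129940 had 98.1 and 18.95. Both were lower (log2 changes -3.52 and -2.52). RPSAP52 shares 3.65% of its span with HMGA2 and HMGA2-AS1 all of it, and without strand, reads from a shared stretch cannot be told apart. RPSAP52 passed the filter through the DMSO libraries alone, and its log2 change was -1.94 with a pseudocount of 10. MIR6835, within HMGA1, had a mean signal of 4.81 over the 6 libraries, too low to test.

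The log2 ratio of HMGA2 to HMGA1 within each library, which does not depend on the size factors, was -2.11, -1.76 and -2.05 under DMSO and -2.17, -2.12 and -2.17 under erlotinib. The groups did not overlap, but DMSO library 1 lay next to erlotinib library 5. The mean ratio changed by -0.18, with an SD of 0.190 in DMSO, and by -0.07 without DMSO library 2, so that library decides most of the difference in this ratio. Each ratio was compared with an exact two-sided permutation test, for which 3 libraries against 3 cannot give a p below 0.1. All 8 ratios compared here reached 0.1, also when adjusted over the 8.

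HMGB genes encode the proteins with HMG boxes. HMGB2 (Entrez gene 3148, chromosome 4, 173331376 to 173334358), which is known to be abundant in dividing cells, fell most of the 10 genes. Its signal was 3740, 4411 and 3877 under DMSO and 886, 1050.4 and 915 under erlotinib. The groups were far apart, with a mean of 4009 ± 355 under DMSO and 950.3 ± 87.9 under erlotinib (SD, n = 3 each). Its log2 change was -2.08 (SE 0.08, limma adjusted p = 9.3e-15), and 2.28% of all tested genes had a lower one.

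HMGB1 (Entrez gene 3146, chromosome 13, 30456704 to 30617597) bends DNA in the nucleus and acts as an alarm signal when it is released from damaged cells. Its signal was 4853, 5419 and 4848.5 under DMSO and 2289, 2162 and 2255 under erlotinib. The groups did not overlap, and the mean in DMSO was 2.26 times that under erlotinib (log2 change -1.17, SE 0.07, limma adjusted p = 3.8e-12). HMGB3 (Entrez gene 3149, chromosome X, 150980507 to 150990771), a paralog known from blood stem cells, had a signal of 5117, 5851 and 5208 under DMSO and 3373, 3059 and 3479 under erlotinib. HMGB3 fell least of the HMGB genes, by 0.71 on the log2 scale (SE 0.07, limma adjusted p = 2.4e-08).

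The HMGB genes thus did not fall by the same amount. In DMSO, the log2 ratio of HMGB2 to HMGB1 was -0.38, -0.30 and -0.32, and under erlotinib it was -1.37, -1.04 and -1.30. HMGB2 had 0.795 times the signal of HMGB1 under DMSO and 0.426 times under erlotinib. The ratio of HMGB3 to HMGB1 moved the other way, from 0.10 ± 0.018 to 0.56 ± 0.063 (log2, SD, n = 3 each), and that of HMGB3 to HMGB2 from 0.43 ± 0.023 to 1.80 ± 0.223. In each of these 3 ratios, the groups did not overlap. The differences of -0.91, 0.46 and 1.37 were each more than 5 times the larger SD (exact permutation p = 0.1 for each, the smallest possible).

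Promoter sequences of HMGB1 and HMGB3 are shown because both genes fell and both promoters hold the CCAAT box, a common element of promoters, 3 times. RefSeq sequences of GRCh38.p14 run from 250 bases before to 50 bases after the start of the gene, and the capitals mark CCAAT on either strand. HMGB1 is at chr13:30465887-30466186 and read on the minus strand, with the first base of the boxes 103, 59 and 28 bases before the start. HMGB3 is at chrX:150983085-150983384 and read on the plus strand, with the first base of the boxes 144, 101 and 55 bases before the start.
HMGB1: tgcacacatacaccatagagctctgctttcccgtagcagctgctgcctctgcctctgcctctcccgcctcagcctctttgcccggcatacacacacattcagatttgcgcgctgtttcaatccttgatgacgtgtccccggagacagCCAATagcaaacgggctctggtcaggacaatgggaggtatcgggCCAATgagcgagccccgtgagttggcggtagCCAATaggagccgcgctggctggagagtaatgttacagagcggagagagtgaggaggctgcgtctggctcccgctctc
HMGB3: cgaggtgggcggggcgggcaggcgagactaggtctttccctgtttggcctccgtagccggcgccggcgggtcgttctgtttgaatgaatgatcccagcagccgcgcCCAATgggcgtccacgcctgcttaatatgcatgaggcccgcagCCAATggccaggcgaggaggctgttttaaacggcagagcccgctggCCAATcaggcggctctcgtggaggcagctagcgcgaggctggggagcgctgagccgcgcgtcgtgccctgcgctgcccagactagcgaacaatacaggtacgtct
Over all 35116 promoters of this length, 34.6% held CCAAT and 3.26% held it at least 3 times. The start of the gene was taken as that of the canonical GENCODE transcript, and promoters of 8 of the 10 genes were matched by symbol. HMGA1 and HMGN2 held 1 box each, HMGN1 and HMGN3 held 2 each, and HMGN4 and HMGN5 held 0. Promoters of HMGA2 and HMGB2 were not analysed here. HMGN3, which was higher under erlotinib, held as many boxes as HMGN1, which was lower. Motifs other than CCAAT were also searched in these promoters and are not reported here. A match of letters is a description and not a site of binding.

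HMGN proteins bind nucleosomes, and their genes were the group with members on both sides. HMGN1 (Entrez gene 3150, chromosome 21, 39342315 to 39349088) had a signal of 8178, 8891 and 7993 under DMSO and 6139.5, 6364 and 6075 under erlotinib. The libraries of the groups did not overlap, though the change was the smallest of the 7 lower genes, a log2 change of -0.43 (SE 0.06, limma adjusted p = 4.5e-06). Scaled to total counts it was -0.25 (limma adjusted p = 0.0015). HMGN2 (Entrez gene 3151, chromosome 1, 26472440 to 26476642), its close paralog, had a signal of 3830, 4124 and 3518 under DMSO and 2108, 2271 and 2151 under erlotinib. HMGN2 fell by 0.81 on the log2 scale (SE 0.07, limma adjusted p = 3.4e-09). The log2 ratio of HMGN2 to HMGN1 was -1.13 ± 0.048 under DMSO and -1.51 ± 0.030 under erlotinib (SD, n = 3 each), with no overlap (exact permutation p = 0.1).

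HMGN4 (Entrez gene 10473, chromosome 6, 26538366 to 26546933) arose as a retrocopy of HMGN2 and has a promoter of its own. Its signal was 1461, 1618 and 1458 under DMSO and 1702, 1661 and 1646.5 under erlotinib. Every erlotinib library was above every DMSO library, but DMSO library 2 lay close to the erlotinib libraries, and the log2 change of 0.14 did not pass the test (95% interval -0.01 to 0.30, limma adjusted p = 0.095). Scaled to total counts it was 0.32 and passed (limma adjusted p = 0.001). Without DMSO library 2 it was 0.19 (limma adjusted p = 0.0095). Relative to HMGN2 the difference was large. The log2 ratio of HMGN4 to HMGN2 was -1.39, -1.35 and -1.27 under DMSO and -0.31, -0.45 and -0.39 under erlotinib, a difference of 0.95 with no overlap (exact permutation p = 0.1). HMGN4 had 0.396 times the signal of HMGN2 under DMSO and 0.768 times under erlotinib.

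The promoters of the parent gene and of its retrocopy are shown because their ratio differed between the groups. HMGN2 is at chr1:26472190-26472489 and HMGN4 at chr6:26538116-26538415, both on the plus strand of GRCh38.p14 (RefSeq), again with CCAAT in capitals.
HMGN2: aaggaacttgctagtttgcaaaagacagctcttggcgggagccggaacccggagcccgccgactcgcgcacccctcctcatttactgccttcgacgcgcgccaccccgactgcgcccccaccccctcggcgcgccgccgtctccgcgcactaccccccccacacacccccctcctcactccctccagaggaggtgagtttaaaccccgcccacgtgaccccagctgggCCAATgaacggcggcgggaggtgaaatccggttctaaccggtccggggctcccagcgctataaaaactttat
HMGN4: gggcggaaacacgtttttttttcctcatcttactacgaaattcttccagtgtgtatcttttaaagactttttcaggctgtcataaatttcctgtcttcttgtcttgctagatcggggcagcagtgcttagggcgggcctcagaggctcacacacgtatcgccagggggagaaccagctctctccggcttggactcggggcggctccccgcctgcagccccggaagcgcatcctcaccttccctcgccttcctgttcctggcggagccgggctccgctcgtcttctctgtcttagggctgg
HMGN2 held its box 22 bases before the start and HMGN4 held 0. The G and C content was 65.3% in the HMGN2 promoter and 56.7% in that of HMGN4.

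HMGN3 (Entrez gene 9324, chromosome 6, 79201245 to 79234682), known from the eye, brain and endocrine tissue, had a signal of 678, 798 and 697 under DMSO and 931, 817 and 849 under erlotinib. The groups did not overlap, but DMSO library 2 and erlotinib library 5 were close. HMGN3 was higher by 0.26 on the log2 scale (SE 0.10, 95% interval 0.06 to 0.46, limma adjusted p = 0.021). Scaled to total counts it was 0.44. The call was lost without DMSO library 1 (0.21, adjusted p = 0.078), without DMSO library 3 (0.23, adjusted p = 0.065) and without erlotinib library 4 (0.20, limma adjusted p = 0.12). HMGN3-AS1, an antisense RNA that overlaps HMGN3, rose from a mean signal of 178 ± 19.2 to 313 ± 41.4 (SD, n = 3 each), a log2 change of 0.81 (SE 0.15, limma adjusted p = 5.9e-05). The genes share 1009 bases, 32.3% of the span of HMGN3-AS1, and since the counted strand is not stated, reads from that stretch cannot be told apart.

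HMGN5 (Entrez gene 79366, chromosome X, 81113699 to 81201913) encodes the HMGN protein with a long acidic end. It was the gene with the lowest signal, with 591, 631 and 502 under DMSO and 579.5, 579 and 531 under erlotinib. The erlotinib libraries lay within the range of the DMSO libraries. Its log2 change was -0.02, with a 95% interval from -0.25 to 0.20 (limma adjusted p = 0.85). Scaled to the total count of each library it was 0.16 (limma adjusted p = 0.2). Relative to HMGN1, HMGN5 was 0.41 higher under erlotinib on the log2 scale, and HMGN3 was 0.69 higher, with no overlap of the groups in either ratio (exact permutation p = 0.1 for each).

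**Figure D2:**
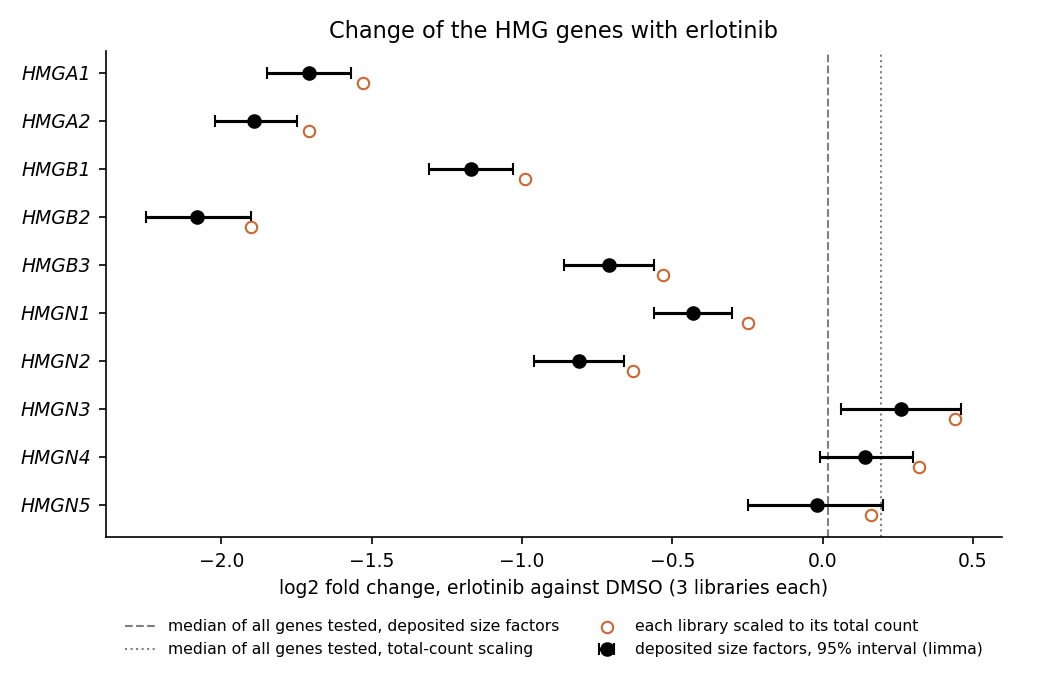
Log2 change of each HMG gene, erlotinib against DMSO (x axis, 3 libraries each). Black points and bars give the limma estimate and its 95% interval with the deposited size factors, open points the estimate after scaling to total counts, and the vertical lines the medians of all tested genes under each scaling (0.02 and 0.19). HMGB2 lies farthest left, and under total-count scaling HMGN5 moves from -0.02 to 0.16.

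**Figure D3:**
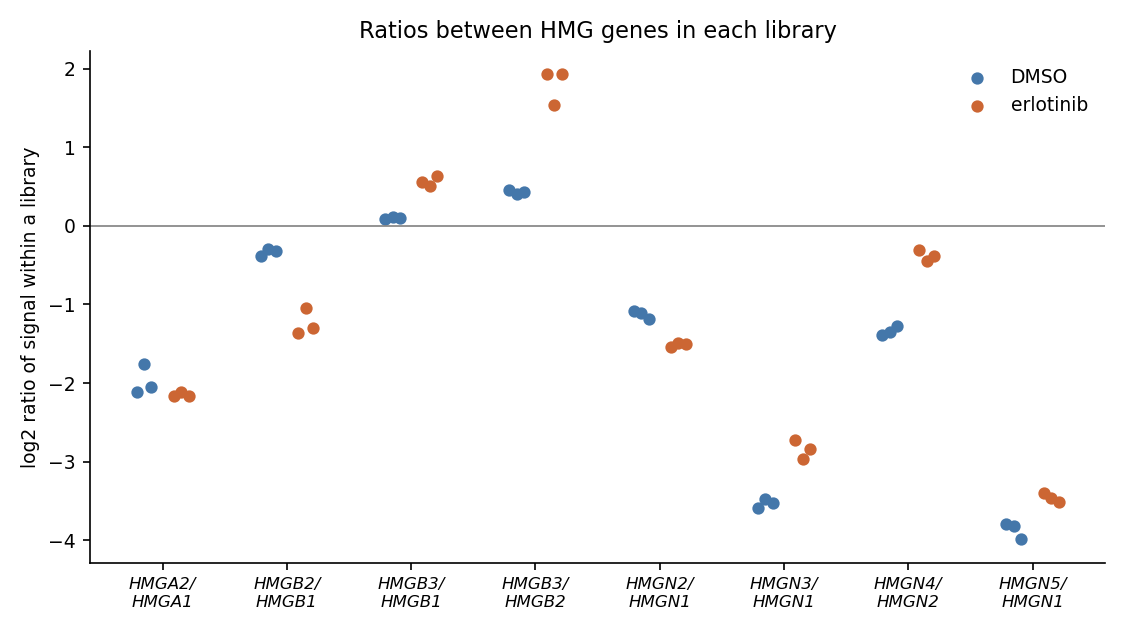
Log2 ratio of signal between pairs of HMG genes within each library (y axis), with DMSO libraries in blue and erlotinib libraries in orange. HMGB3/HMGB2 and HMGN4/HMGN2 moved up by 1.37 and 0.95, and HMGB2/HMGB1 moved down by 0.91.

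For 7 genes all erlotinib libraries were below all DMSO libraries, and for HMGN3 and HMGN4 all were above, whereas 36.9% and 36.7% of all tested genes separated in these directions and 73.6% in either. The DMSO libraries differed among themselves in a way the HMG genes shared. DMSO library 2 held the highest DMSO signal of 9 of the 10 genes and the lowest of HMGA1. Of all tested genes, 41.7% were highest and 36% lowest in that library, which was also the deepest. Without it, 7 HMG genes were lower and 2 higher (HMGN3 and HMGN4).

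To compare levels between genes, reads were divided by the length of the canonical transcript and by the total of each library, giving RPKM, a level scaled by transcript length and by the total reads on genes. The median of all tested genes lies 0.19 above 0 on the log2 scale when libraries are scaled by their totals. In DMSO the order of the mean levels was HMGA1 (779 ± 55.5), HMGN1 (285 ± 18.1), HMGB2 (121 ± 12.2), HMGA2 (92.4 ± 6.78), HMGN2 (85.45 ± 6.67), HMGB3 (66.7 ± 5.71), HMGB1 (40.1 ± 3.00), HMGN4 (33.8 ± 2.37), HMGN3 (32.8 ± 3.29) and HMGN5 (11.9 ± 1.29, RPKM, SD, n = 3 each). HMGA2 and HMGN2 overlapped between libraries, as did HMGN4 and HMGN3, and the other neighbours in this order did not. With erlotinib HMGA1 was still first, at 269.8 ± 10.9, with HMGN1 at 239 ± 4.08. HMGB2 moved from the third place to the seventh (32.4 ± 2.72) and HMGA2 from the fourth to the eighth (28.3 ± 0.656). HMGN2 (55.1 ± 1.698), HMGB3 (46.3 ± 3.39), HMGN3 (44.4 ± 3.32) and HMGN4 (42.2 ± 0.909) then stood above them, and HMGB3, HMGN3 and HMGN4 overlapped as neighbours in this order.

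The length used matters for this order. With the length of all annotated exons of a gene, HMGA2 stood at the eighth place in DMSO with a mean of 25.25 RPKM, and HMGB2 (72.5) and HMGN1 (71.85) were close together. Under erlotinib HMGA1 was then at 222.6 and HMGN1 at 60.3 RPKM. Summed over the 10 genes and with the canonical lengths, the level was 1547 ± 29.7 under DMSO and 790.9 ± 10.2 under erlotinib (RPKM, SD, n = 3 each). HMGA genes made up 56.3% ± 3.17 of this sum under DMSO and 37.7% ± 1.02 under erlotinib. The HMGN share was 29.0% ± 1.97 and 49.8% ± 1.09, and the HMGB share 14.7% ± 1.26 and 12.5% ± 0.146. These shares are given as a description. They do not depend on the scaling of the libraries, but they depend on the length used. With the length of all annotated exons, a choice added after the data were seen, the HMGA share was 65.5% ± 3.22 and 47.6% ± 0.878, the HMGN share 18.7% ± 1.66 and 36.9% ± 0.992 and the HMGB share 15.8% ± 1.597 and 15.5% ± 0.178. In reads not divided by length, the HMGA share was 59.5% ± 2.81 and 41.8% ± 0.760, the HMGN share 20.6% ± 1.36 and 37.2% ± 1.14 and the HMGB share 19.9% ± 1.51 and 21.0% ± 0.387. By all 3 measures the mean HMGA share was lower and the mean HMGN share higher under erlotinib, while HMGN was the largest class under erlotinib by the canonical lengths only, and the direction of the HMGB share differed.

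**Figure D4:**
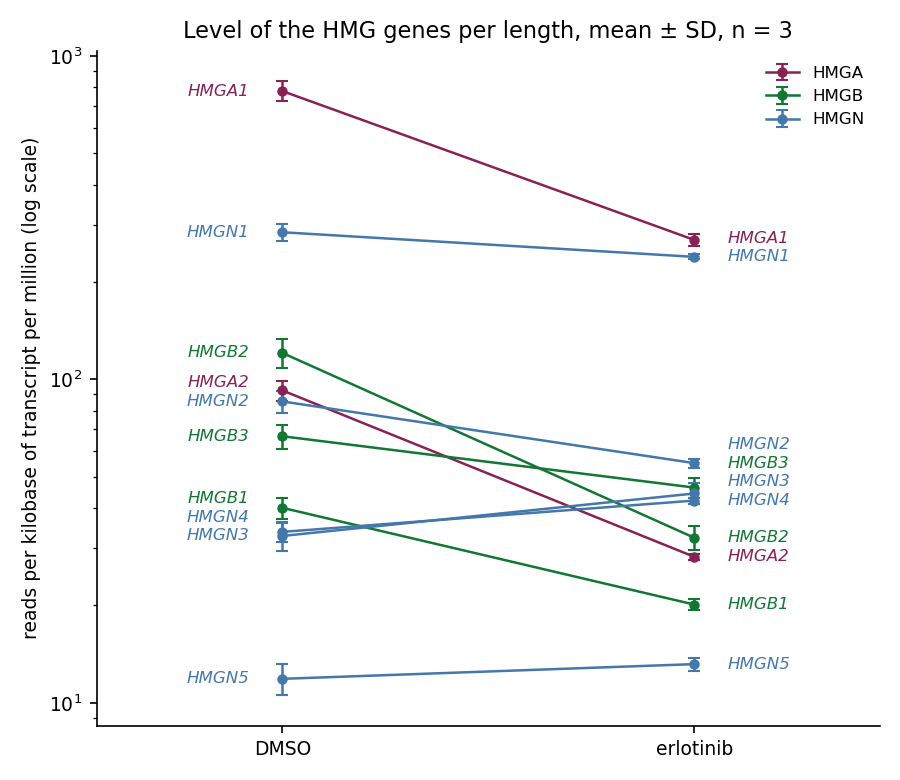
Level per length of the 10 HMG genes (y axis, RPKM with the canonical transcript, log scale) under DMSO and under erlotinib, as mean and SD of 3 libraries, coloured by class. HMGA1 is highest in both groups, and HMGB2 and HMGA2 fall below HMGN3 and HMGN4 under erlotinib.

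Several HMG genes have many processed pseudogenes, which bear on counts of uniquely mapped reads. GENCODE names 47 pseudogenes after HMGB1, 38 after HMGN2, 32 after HMGN1, 29 after HMGB3, 7 after HMGA1 and 1 each after HMGB2 and HMGN3, and 0 after HMGA2, HMGN4 and HMGN5. Stretches of at least 100 bases with an identity of at least 97% elsewhere on the main chromosomes covered 89.4% of the HMGN1 transcript, 62.4% of HMGN2, 41.3% of HMGB1 and 16.1% of HMGA1. For the other 6 genes the share was 0. Reads from such stretches may not map uniquely, so the levels of HMGN1, HMGN2, HMGB1 and HMGA1 are uncertain. The part of such copies in the changes was not tested.

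HMGB4, the remaining gene of the HMGB class, is known from the testis and was listed at 0 in each of the 6 libraries. Other proteins with an HMG box were mixed in direction. Of 22 listed genes 20 were tested, and 6 were lower, 7 higher and 7 neither, with a median log2 change of 0.11, counts near those of all tested genes (35.4% lower and 35.3% higher). Scaled to total counts, 4 were lower and 10 higher. The largest falls were those of WDHD1 (-1.76), which acts at the replication fork, and of TCF7 (-1.33), a partner of beta-catenin. SSRP1 (-1.01), a subunit of the histone chaperone FACT, and TFAM (-1.20), which packs mitochondrial DNA, were lower as well. HBP1 (1.94), a repressor of cell cycle genes, and TOX (1.27), best known from T cells, rose most.

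Linker histones compete with HMG proteins for nucleosomes. Of 11 listed, 6 had enough signal to test, and 3 were higher, 1 lower and 2 neither (35.3% of all tested genes were higher and 35.4% lower). Polyadenylated RNA was sequenced, so RNA of the HIST1H1 genes without a poly(A) tail would be missed. Their counts may therefore not follow their full level. HIST1H1C rose from a mean signal of 353 to 1315 (log2 change 1.91, SE 0.11, limma adjusted p = 3.8e-12). H1FX rose from 5936 to 9246.5 (0.65), and H1F0, which is known to accumulate in resting cells, rose by 0.55 on the log2 scale. H1F0 had the highest mean signal of the list, 15285. The lower gene was HIST1H1B (-1.64), with a mean signal of only 14.6. HIST1H1B passed the filter through the DMSO libraries alone, and it was not called without erlotinib library 5 (-1.01, limma adjusted p = 0.1). With a pseudocount of 10 its log2 change was -0.89 (limma adjusted p = 0.011).

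Proteins of the SET complex and chaperones of histones were mostly lower, with 11 of 14 tested genes lower, 1 higher and 2 neither and a median log2 change of -1.01, where 35.4% of all tested genes were lower. HMGB2 is known as a part of the SET complex. SET itself was lower by 0.76 on the log2 scale, its partner ANP32A by 0.83 and the nuclease NME1 by 2.40. The histone chaperones ASF1B (-3.28) and CHAF1B (-2.46) fell most, and APEX1 (0.17, limma adjusted p = 0.02), a repair nuclease of the same complex, was the one higher gene. Without erlotinib library 4 or 5 APEX1 was not called (0.15 in both). Scaled to total counts its log2 change was 0.35 (limma adjusted p = 3.4e-05). NAP1L4, a chaperone that most cells use, was not tested, with 2 reads in DMSO library 3 and 0 in the other libraries, so a 0 in this table does not show that a gene was silent.

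Of 21 listed genes for nuclear architecture and abundant chromatin proteins, 20 were tested, with 17 lower, 1 higher and 2 neither (35.4% of all tested genes were lower) and a median of -0.73, near the -0.76 of the HMG genes. H2AFZ, a histone variant, had a log2 change of -2.39, LMNB1, a lamin, one of -2.24, and CBX5, which binds heterochromatin, one of -1.30. Of the genes that encode the replacement histone H3.3, H3F3A was higher (0.65, mean signal 249) and H3F3B lower (-0.71, mean signal 7617). Copies of H3F3A and H3F3B elsewhere in the genome were not searched, so reads lost to such copies are not known.

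All 22 listed cell cycle genes were lower (35.4% of all tested genes were), with a median log2 change of -2.77. CDC6, which loads the replicative helicase, fell most (-4.19), followed by RRM2, a subunit of ribonucleotide reductase (-4.14), and the smallest fall was that of MCM7 (-1.51). HMGB2 (-2.08), HMGA2 (-1.89) and HMGA1 (-1.71) lay within the range of this list, and the other 7 HMG genes changed less than its least changed member. The part of the cell cycle genes in the change of the HMG genes was not tested.

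HMGA2 RNA is a known target of let-7 miRNAs, which LIN28 proteins hold back. Of 12 listed genes of this axis, 9 were tested, and 4 were lower, 4 higher and 1 neither, with a median of -0.12, again near the 35.4% lower and 35.3% higher of all tested genes. LIN28B was listed at 0 in every library, and LIN28A at most 12 reads, in DMSO library 2. ARID3B fell by 1.93 on the log2 scale, and DICER1, which cuts miRNA precursors, by 0.60. The host transcript MIRLET7BHG was higher (2.04), from a low mean signal of 43.2 over the 6 libraries. TUT7, which adds uridines to let-7 precursors, rose by 0.37. Of the IGF2BP genes, whose proteins bind and protect mRNA, IGF2BP1 (-0.43) and IGF2BP2 (-0.52) were lower and IGF2BP3 (0.24) was higher, with -0.25, -0.34 and 0.42 when scaled to total counts. Mature miRNAs were not measured.

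Receptors and partners of HMGB1 outside the cell were mostly near or at 0. Of 11 listed genes 4 were tested, with 3 higher and 1 lower, too few to set against the 35.3% and 35.4% of all tested genes. AGER, the receptor RAGE, and TLR4 were listed at 0 in every library. TLR9, a receptor for DNA, had 1 to 4 reads in the DMSO libraries and 13 to 30 in the erlotinib libraries. It is 1 of the 3 higher genes but passed the filter through the erlotinib libraries alone, and its log2 change was 2.49, or 1.14 with a pseudocount of 10. CD24, a surface protein that binds HMGB1, rose from a mean signal of 3223 to 15962 (log2 change 2.31, SE 0.06, limma adjusted p = 3.3e-17), and LY96, a partner of TLR4, rose by 0.64. LY96 missed the threshold without erlotinib library 4 (0.53, limma adjusted p = 0.056), and the signal of TLR9 was too low to test without erlotinib library 5 or 6. THBD, thrombomodulin, was the lower gene (-1.44).

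**Figure D5:**
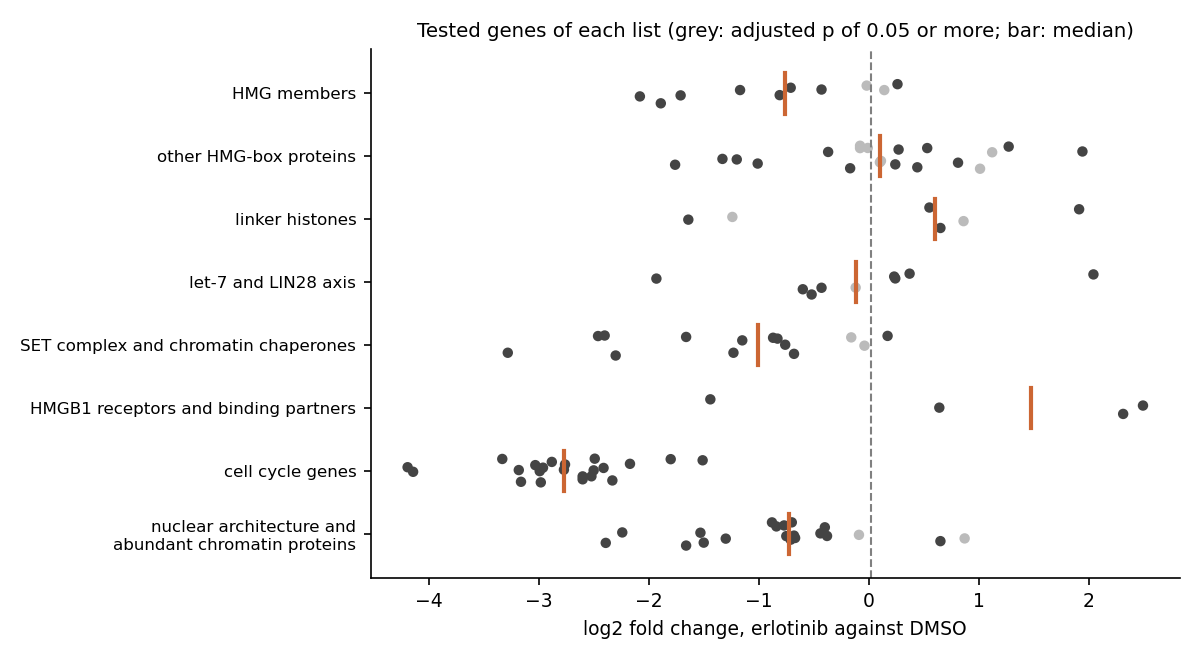
Log2 change (x axis) of every tested gene of the HMG set and of the 7 other lists (rows), with genes at an adjusted p of 0.05 or more in grey, the median of a list as an orange bar and the median of all genes tested as a dashed line. The cell cycle genes lie between -4.19 and -1.51, and the HMG genes between -2.08 and 0.26.

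The genes whose pattern over the 6 libraries was most like that of the most changed member of each class were found by Pearson correlation of log2(signal + 1) among 7548 genes whose mean signal reached 500. For HMGA2 they were MYBL1 (0.9997), F3 (0.9997) and FOSL1 (0.9996). NOP16 (0.9998), LRRC8D (0.9998) and HSPD1 (0.9996) came first for HMGB2, and MTMR2 (0.9999), UTP14C (0.9997) and ENOX2 (0.9997) for HMGN2. With 2 groups of 3 libraries such values are common, and 1007, 901 and 528 genes of the pool reached more than 0.99 with HMGA2, HMGB2 and HMGN2. The size of the change differed among them, from -0.25 for UTP14C (-0.07, not called, when scaled to total counts) to -4.15 for FOSL1.

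The label of the cells was compared with markers. KRT7 had the highest signal of the 6 epithelial markers, 123686 under DMSO and 79897 under erlotinib. EPCAM (9852 and 9485) and CDH1 (27824 and 30609) were abundant in both groups and were called neither lower nor higher. The keratins KRT7 (-0.63), KRT8 (-0.83), KRT18 (-1.25) and KRT19 (-0.39) were lower under erlotinib (log2 changes). NKX2-1 and NAPSA, markers of the lung lineage, had mean signals of 3002 and 986 under DMSO and were higher under erlotinib (1.53 and 1.92), while SFTPC was at 0 under DMSO and 0.624 under erlotinib. Of the leukocyte markers reported, CD68, which is not limited to leukocytes, had a mean signal of 2898 under DMSO and 3394 under erlotinib, and PTPRC, CD3E and LYZ had at most 4.753 in either group. The summed signal of 4 endothelial markers was 15.8 to 34.0 under DMSO and 45.9 to 58.1 under erlotinib, and VWF had the highest mean of the 4 under erlotinib, 27.45. For 5 fibroblast markers it was 71.5 to 103 and 197 to 251, nearly all from COL1A1. COL1A2, COL3A1, DCN and PDGFRB had a mean signal of at most 2.175 in either group. EGFR, the target of erlotinib, had a signal of 79645 ± 2441 under DMSO and 45538 ± 3759 under erlotinib (SD, n = 3 each), a log2 change of -0.81 (SE 0.07, limma adjusted p = 2.4e-09).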

How the data were processed

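RNA-seq was performed in 6 libraries of HCC827 cells, 3 with DMSO and 3 with erlotinib. Per the paper's methods and the submitters' processing notes, paired-end reads were mapped to GRCh38 with Bowtie2 2.3.4, which does not split reads at introns, and uniquely mapped reads were counted with featureCounts 1.6.3. The deposited signal values are reads divided by 1 size factor per library, since 100% of the values were whole multiples of the library's step (within 0.01 reads). The size factors were 0.882 to 1.08, and recovered reads were used for edgeR, DESeq2 and levels per length. The test was limma with a trend on log2(signal + 1).

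Members and gene lists were chosen with earlier results of these data known. Named genes are the members, in each list the 2 most raised and 2 most lowered of the called genes whose mean signal reached 50, the 3 genes most like the most changed member of each class, genes that overlap a member, and EGFR. Other list genes (among them TFAM, SSRP1, NME1, CBX5, MCM7, TLR9 and MIRLET7BHG) were named after their values were seen. The values of 1 marker gene are not reported here. Copies were searched with BLAST 2.17.0 in hg38 with canonical transcripts of GENCODE release 44. The limma fit was tested on simulated data. Alternatives were TMM factors, total-count scaling, edgeR, DESeq2, other pseudocounts (0.1 and 10), other filters, a threshold of 0.01 and each library left out. Depth was 20760204 to 24641819 reads on genes, and intervals cover the spread between these libraries. Python 3.11.15 and R 4.3.3 were used, with DESeq2 1.42.0, edgeR 4.0.16 and limma 3.58.1.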

Additional observations from a re-analysis of the deposited data

How the results depend on the processing

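The 7 lower HMG genes were lower under every alternative run, with 7 called in each. Scaling to the total count moved the median of all tested genes by most, from 0.02 to 0.19 (0.13 with no filter, over 19595 genes), and turned the direction of HMGN5 (0.16, adjusted p = 0.2). Under it HMGN4 passed the threshold (0.32, adjusted p = 0.001), 2 HMG genes were higher, and 3955 genes were lower and 6156 higher in place of 5031 and 5012. At an adjusted p under 0.01 HMGN3 (0.26, adjusted p = 0.021) was not called, so 0 HMG genes, 0 chaperones and 0 linker histones remained in the counts of 1 higher, 1 higher and 1 lower. The number of lower linker histones was 2 with edgeR, 2 with DESeq2, 2 with a pseudocount of 10 and 0 when each library had to hold 10 reads of a gene. In the same setting 2 HMGB1 receptors and partners were higher in place of 3, since TLR9 was no longer tested. The cause of the other shifts was not tested.

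With each library left out in turn, the log2 fold change of HMGN3 was 0.20 to 0.33, that of HMGN4 0.12 to 0.19 and that of HMGN5 -0.12 to 0.05. The number of higher HMG genes was 0 to 2, of lower linker histones 0 to 2, of higher chaperones 0 to 1, of higher HMGB1 receptors and partners 2 to 3 and of higher nuclear architecture genes 1 to 2. The HMGA2 to HMGA1 ratio changed by -0.25 to -0.07. No paired analysis was possible because the erlotinib columns are numbered 4 to 6 and the sample titles 1 to 3, so the columns share no numbers. The fit with a replicate block was therefore not run. HMGN5 and HMGN3 had the fewest reads of the 10 genes and the largest SE, 0.11 and 0.10 on the log2 scale.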

Other observations

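Of the pseudogenes named after HMG genes, HMGN2P46, HMGA1P7 and HMGB3P1 are listed in the deposited table. HMGA1P7 and HMGB3P1 were at 0 in every library. HMGN2P46 (Entrez gene 283651, chromosome 15, 45511136 to 45556730), chosen after its values were seen, had a signal of 3.40, 11.1 and 3.21 under DMSO and 132, 112 and 119 under erlotinib. All erlotinib libraries were far above all DMSO libraries. Its log2 change was 4.32 (SE 0.42, limma adjusted p = 1.1e-08), the opposite direction to HMGN2, after which it is named, and a higher value than that of 99.5% of all tested genes. The locus is annotated as a transcribed pseudogene and overlaps SLC30A4, a zinc transporter, whose mean signal was 4.70 under DMSO and 30.5 under erlotinib (log2 change 2.55, SE 0.56, limma adjusted p = 3.8e-04). The genes share 11620 bases, 25.5% of the span of HMGN2P46, where reads cannot be told apart without strand. Both passed the filter on low signal through the erlotinib libraries alone, so the tests are no support of their own, and with a pseudocount of 10 the log2 change of SLC30A4 was 1.46.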
